A study of Mus musculus with 4 samples.

Results

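The nuclear-encoded subunits of oxidative phosphorylation were examined in B16F10 mouse melanoma cells from 4 sources. Members were the rows of the deposited count table whose gene symbol marks a subunit of complexes I to V (symbols starting with Nduf and a letter class of subunits, Sdha to Sdhd, Uqcr, Cox4 to Cox8, or Atp5) and that held at least 1 read in any library. This gave 83 of the 19894 genes with a read. The rule used symbols only and no measured value, and 2 further matching symbols, Cox7b2 and Cox8c, had no read. Of the 83 members, 80 had a mean of at least 1 CPM (reads of the gene per 1000000 counted reads), whereas Ndufs5, Cox4i2 and Cox6b2 lay below that level. The members counted 36 genes of complex I, 4 of complex II, 8 of complex III, 18 of complex IV and 17 of complex V. Ndufa4 and Ndufa4l2 were counted with complex IV, where the NDUFA4 protein is now placed. Cox7a2l, Atp5s and Atp5sl matched the rule by symbol but are not counted as subunits in what follows.

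Oxidative phosphorylation takes electrons from NADH at complex I and from succinate at complex II, passes them through ubiquinone, complex III and cytochrome c to oxygen at complex IV, and uses the resulting proton gradient to make ATP at complex V. Most of its subunits are encoded in the nucleus, translated in the cytosol and assembled in the inner mitochondrial membrane with a few subunits encoded by mitochondrial DNA. Several complex IV subunits exist in versions that differ between heart or skeletal muscle and other tissues, or with oxygen supply.

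The B16F10 line derives from a melanoma of C57BL/6 mice, and all 4 libraries carry the genotype label WT. The 2D monoculture library came from B16F10 cells grown alone as a monolayer. The 2D co-culture library came from B16F10 cells grown flat with NIH/3T3 mouse fibroblasts, and the spheroid library from hanging-drop spheroids of both lines. The methods state that melanoma cells with a green fluorescent protein (the Linterna B16F10 line) were sorted from these cultures. The tumor library came from tumors raised under the skin of both flanks of 1-year-old female C57BL/6 mice. Sorting of the tumor cells is stated in the methods, but the label of this library reads snap frozen, and the time in culture of the sequenced spheroids was not given in the sources used here.

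Each condition has 1 library, although the methods state n = 3 for the RNA isolation. Differences between conditions could therefore not be checked against replicates, and p-values were not computed. Between 118896900 and 150028663 reads were counted per library. CPM values were scaled with TMM factors, which ranged from 0.908 to 1.16. Intervals are 95% exact binomial intervals, which cover counting error only and are narrow at this depth. A gene was counted as higher or lower when its log2 ratio, with 1 CPM added to both values, passed 2-fold. Markers of other cells were high in the tumor library. The summed level of 7 skeletal muscle genes was 4716 CPM in the tumor and 6.41 to 8.77 CPM in the cultures, that of 8 myeloid genes 1641 CPM against 9.97 to 29.9 CPM, and that of 8 fibroblast genes 3176 CPM against 8.65 in the monoculture, 13.8 in the spheroid and 655 in the co-culture. Summed melanocyte markers lay between 10549 CPM (spheroid) and 18850 CPM (tumor). The share of other cells in the tumor values below was not tested. In such bulk RNA, fewer cells of a type and less RNA per cell cannot be told apart.

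The members as a set took the smallest share of reads in the 2D monoculture and the largest in the spheroid. Their share was 1.73% of the reads in the monoculture, 2.10% in the co-culture, 2.34% in the spheroid and 2.10% in the tumor. Their summed level was 17556 CPM in the monoculture, 21766 in the co-culture, 25788 in the spheroid and 18095 in the tumor. Of the 80 members with at least 1 CPM, 60 had their highest level in the spheroid and 53 their lowest in the monoculture. The tumor was highest for 12 members and lowest for 15. Highest and lowest libraries were not counted over all genes, and these counts depend on the scaling. The spheroid lay above the tumor for 64 of the 80 members, beside 51.8% of all genes, but for 49 when scaled by total counts.

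**Figure D1:**
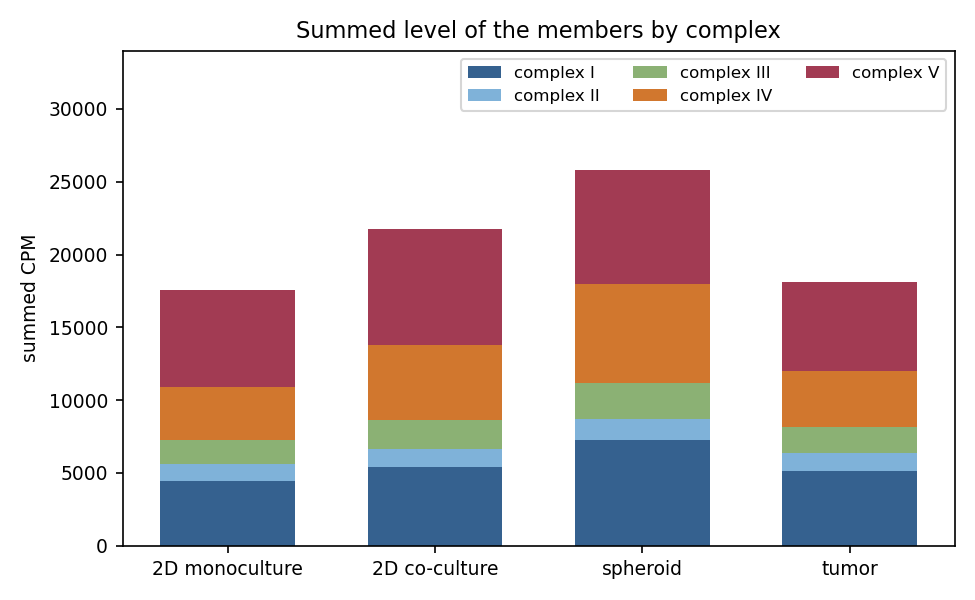
Summed level of the members in each library, in CPM, as bars stacked by complex. The spheroid bar reached 25788 CPM and the monoculture bar 17556 CPM.

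Against the monoculture, the median log2 ratio of the 80 members was 0.73 in the spheroid, 0.36 in the co-culture and 0.31 in the tumor, where the medians over all 12728 genes were 0.05, 0.01 and -0.14. In the spheroid 21 members were more than 2-fold higher and 1 was lower, beside 11.2% higher and 17.9% lower among all genes. In the co-culture 0 members passed 2-fold in either direction, beside 3.79% and 9.51% of all genes. Above the monoculture lay 69 of 80, beside 50.8% of all genes and 79.6% of genes with transcripts under 1200 bases. In the tumor 4 members were higher and 1 lower, beside 14.8% and 18.2%. The 4 higher ones were the tissue or oxygen dependent versions Cox6a2, Cox7a1, Cox8b and Ndufa4l2. The spheroid, set directly against the tumor, had a median of 0.50 (all genes, 0.08), with 10 members higher and 5 lower beside 26.8% and 27.6% of all genes. Scaled by total counts alone, the same comparison gave a median of 0.14 (all genes, -0.27), with 5 members higher and 7 lower beside 19.3% and 33.9% of all genes. Against the co-culture the spheroid had a median of 0.34 (all genes, -0.01), with 4 members higher and 0 lower beside 9.54% and 8.46%. These 5 comparisons share libraries and are not independent of each other.

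**Figure D2:**
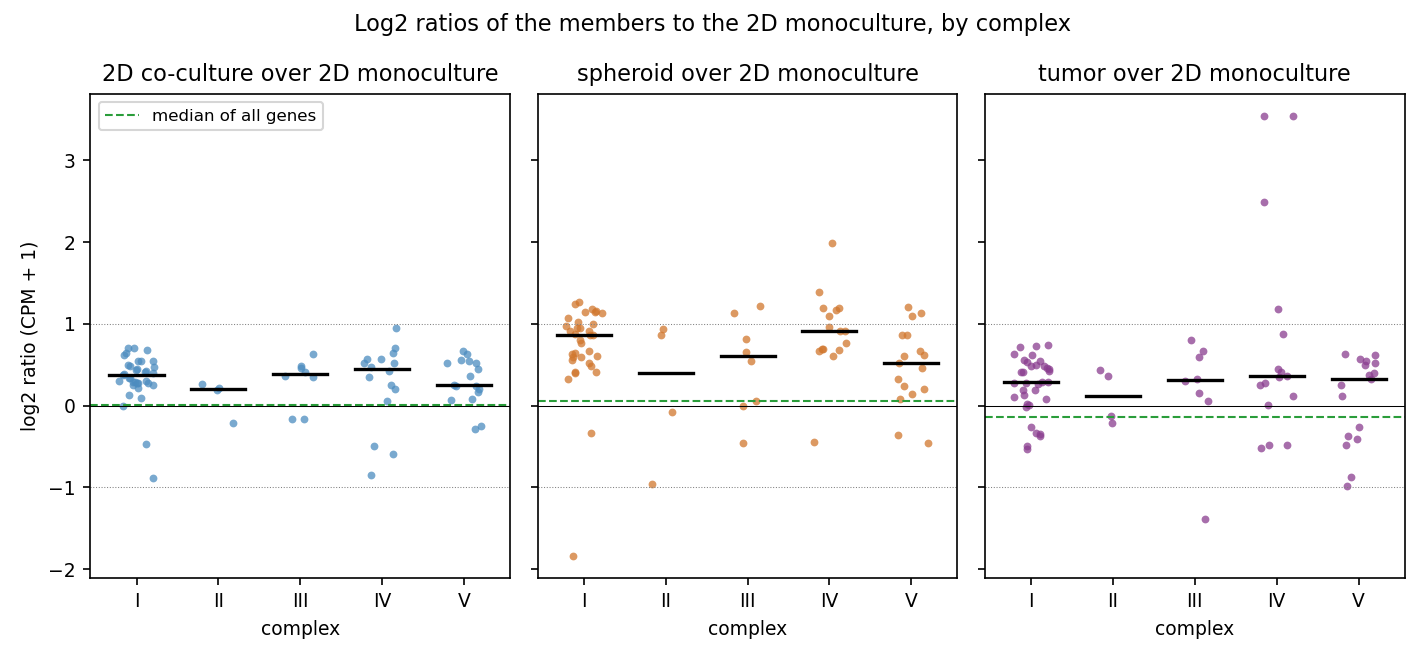
Log2 ratio to the 2D monoculture, with 1 CPM added, of the 80 members by complex (points), with the median of each complex (black bars), the median of all genes (green dashed line) and the 2-fold limits (dotted lines). The spheroid medians of complexes I and IV, 0.86 and 0.91, lay above those of complexes II and V, 0.39 and 0.52.

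Transcript length and GC content moved with these ratios across the whole table, and the members' transcripts are short. The median transcript of the 73 ordinary subunits with at least 1 CPM was 775.5 bases long, against 2870 bases for all genes. Over 12467 genes, the spheroid over monoculture ratio went with length at a Spearman rho of -0.40, a description across genes that are not independent replicates. Within the 73 subunits the rho was -0.42. GC content went with the same ratio at 0.49 over all genes and 0.03 within the subunits, with the tumor over monoculture ratio at -0.39 over all genes and -0.21 within the subunits, and with the spheroid over tumor ratio at 0.55 and 0.27. The 51 subunits with transcripts under 1200 bases had a median of 0.86 in the spheroid, where all 1323 genes of that length had 0.56. The 22 longer subunits had a median of 0.37, against 0.00 for all longer genes. In the co-culture the short subunits had a median of 0.45 against 0.35 for short genes in general, and in the tumor 0.36 against 0.35. The limit of 1200 bases was chosen after the data were seen.

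After the median ratio of each class of GC content and length had been removed, the members' median was 0.25 in the spheroid, 0.09 in the co-culture and 0.02 in the tumor against the monoculture, and 0.22 in the spheroid against the tumor. On that scale 4 members were more than 2-fold higher and 2 lower in the spheroid than in the monoculture, beside 9.25% and 10.6% of all genes. The 4 higher were Ndufs4 at 1.47, Ndufab1 at 1.39, Cox6a2 at 1.35 and Atp5s, which is not counted as a subunit, at 1.02. Ndufab1 stood at 0.86 before this step, and the transcript length used for it, 3479 bases, is uncertain. Of the 80 members 55 lay above 0, against 71 before this step, so more members crossed than those named next. Members named in the text that lay above the monoculture in the spheroid before this step and under it afterwards were Uqcrc1 at -0.59, Ndufv1 at -0.24, Ndufs3 at -0.23, Atp5g3 at -0.22, Ndufa8 at -0.22, Ndufs8 at -0.15, Atp5d at -0.12, Atp5f1 at -0.084, Ndufa11 at -0.079 and Ndufb10 at -0.024. Cox4i1 was left at 0.04 and Atp5b at 0.01, whereas Ndufv3 was left at 0.63, Ndufa7 at 0.61, Uqcrb at 0.84 and Cox6a1 at 0.47. Whether the trends with length and GC content reflect the libraries or the cells was not tested.

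**Figure D3:**
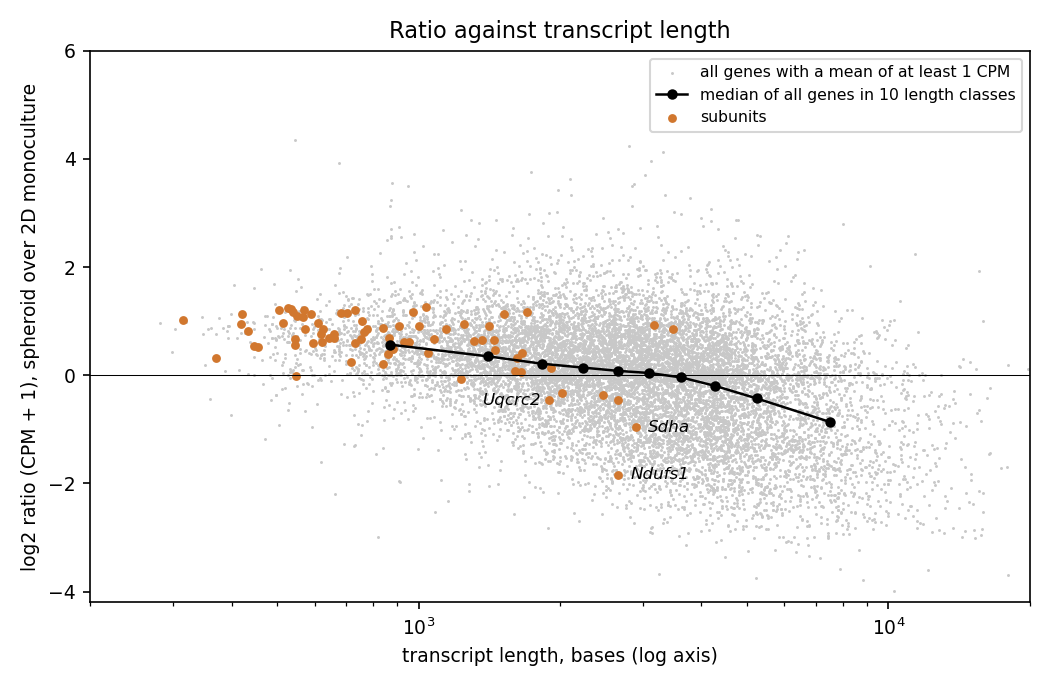
Log2 ratio of spheroid over 2D monoculture, with 1 CPM added, against transcript length in bases on a log axis, for all genes with at least 1 CPM (grey), for subunits (orange) and as the median of all genes in 10 length classes (black line). The line went from 0.57 in the shortest class to -0.86 in the longest, and Ndufs1 and Sdha lay below it.

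Complex I, the NADH dehydrogenase, had a summed level of 4436 CPM in the monoculture, 5431 in the co-culture, 7248 in the spheroid and 5101 in the tumor. Of its 35 members with at least 1 CPM, 31 had their highest level in the spheroid, a count that was not made over all genes. Their median log2 ratio to the monoculture was 0.86 in the spheroid, 0.38 in the co-culture and 0.28 in the tumor. In the spheroid 10 of them were more than 2-fold higher and 1 was lower, beside 11.2% and 17.9% of all genes. Among genes with transcripts under 1200 bases, 19.7% were higher and 1.51% lower. With the GC and length trend removed, only Ndufs4 and Ndufab1 of complex I were more than 2-fold higher, at 1.47 and 1.39. The 18 membrane-arm subunits had a spheroid median of 0.86, the 8 subunits of the electron input part 0.87 and the 8 of the quinone part 0.62. All 8 quinone-part subunits lay above the monoculture in the spheroid, beside 53.7% of all genes.

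The member that went furthest the other way was Ndufs1, the largest subunit of complex I, which carries iron-sulfur clusters of the electron input part (GRCm38 chr1:63143596-63176833, minus strand). Its level was 220 CPM in the monoculture, 119 in the co-culture, 60.7 in the spheroid and 263 in the tumor. The spheroid was thus lowest and the tumor highest. The log2 ratio was -1.85 for spheroid over monoculture (95% interval -1.89 to -1.82) and -2.12 for spheroid over tumor (-2.15 to -2.08). Removing the GC and length trend left -1.31 and -1.29, so it was lower in the spheroid than most genes of its class of GC content and length.

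Its neighbours in the electron input part did not share that pattern. Ndufv1, which binds the NADH and the flavin, had 167 CPM in the monoculture, 202 in the co-culture, 223 in the spheroid and 117 in the tumor. Ndufv2, an iron-sulfur subunit, had 206, 246, 321 and 283 CPM in the same order. Ndufv3, a small accessory subunit, had 90.5, 110, 219 and 149 CPM and the largest spheroid over monoculture ratio of the ordinary subunits, 1.27 (1.24 to 1.30). For all 3 the spheroid was the highest library, but the lowest was the tumor for Ndufv1 and the monoculture for the other two.

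The core subunits that lead electrons to ubiquinone also differed among themselves. Ndufs7 had 105 CPM in the monoculture, 141 in the co-culture, 211 in the spheroid and 81.3 in the tumor. Ndufs8 had 99.7, 146, 140 and 154 CPM. The spheroid over tumor log2 ratio was 1.38 (1.35 to 1.41) for Ndufs7 and -0.14 for Ndufs8, and 0.47 and -0.70 with the GC and length trend removed. Ndufa7, a small subunit of the same part, had 86.8 CPM in the monoculture, 115 in the co-culture, 206 in the spheroid and 99.4 in the tumor, a spheroid ratio of 1.25 (1.22 to 1.28).

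The remaining complex I members are accessory subunits. Ndufb9 had 248 CPM in the monoculture, 296 in the co-culture, 550 in the spheroid and 266 in the tumor. Ndufa2 and Ndufb3 had the largest tumor over monoculture log2 ratios of complex I, 0.74 and 0.75, but both were highest in the spheroid. Ndufa2 had 62.7 CPM in the monoculture, 96.8 in the co-culture, 115 in the spheroid and 105 in the tumor. Ndufb3 had 80.8, 127, 142 and 136 CPM in the same order. With the GC and length trend removed, their tumor ratios were 0.44 and 0.12. Ndufa8 was the complex I subunit with the lowest tumor ratio, -0.54, at 157 CPM in the monoculture, 172 in the co-culture, 207 in the spheroid and 108 in the tumor. Ndufa10 was the only other complex I subunit below the monoculture in the spheroid, at -0.34, with 155 CPM against 123 CPM. Ndufs5 had 2 reads in all 4 libraries together, and the deposited counts cannot show whether it is not transcribed or was lost in counting.

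**Figure D4:**
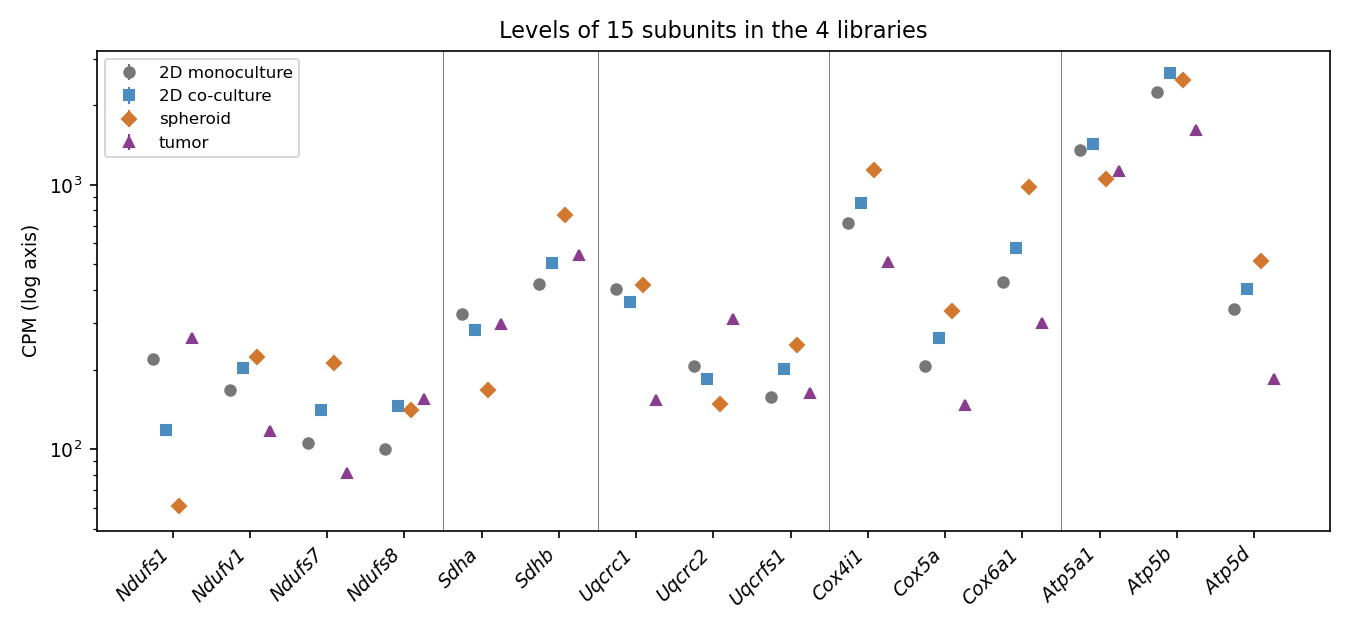
Levels in CPM on a log axis of 15 subunits, grouped by complex from I (left) to V (right), in the 4 libraries, with 95% exact intervals that are smaller than the symbols. Ndufs1, Sdha, Uqcrc2 and Atp5a1 were lowest in the spheroid. Ndufv1, Ndufs7, Uqcrc1, Cox4i1, Cox5a, Cox6a1, Atp5b and Atp5d were lowest in the tumor, and the others in the monoculture.

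Complex II, succinate dehydrogenase, held 2 members above and 2 below the monoculture in the spheroid, so its median of 0.39 describes none of them. Sdha, the flavin subunit that oxidises succinate (chr13:74322254-74350280, minus strand), had 325 CPM in the monoculture, 282 in the co-culture, 167 in the spheroid and 297 in the tumor. Its spheroid over monoculture ratio was -0.97 (-0.99 to -0.94), and -0.55 with the GC and length trend removed. Sdhb, its iron-sulfur partner, had 422 CPM in the monoculture, 506 in the co-culture, 768 in the spheroid and 542 in the tumor, a ratio of 0.86 (0.85 to 0.88). The membrane anchors were split as well, Sdhc at 0.94 and Sdhd at -0.08. The sign of Sdhd changed when libraries were scaled by their upper quartile.

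Complex III, the cytochrome bc1 complex, had 6 of 8 members above the monoculture in the spheroid. Beside this stood 53.7% of all genes and 83.0% of genes with transcripts under 1200 bases. Uqcrb and Uqcrq were more than 2-fold higher, beside 11.2% of all genes. With the GC and length trend removed, they were left at 0.84 and 0.97. Uqcrb had 70.4 CPM in the monoculture, 110 in the co-culture, 166 in the spheroid and 124 in the tumor. Uqcrfs1, the Rieske iron-sulfur protein, had 157, 200, 248 and 163 CPM. The core proteins went apart. Uqcrc1 had 402 CPM in the monoculture, 359 in the co-culture, 420 in the spheroid and 153 in the tumor. Uqcrc2 had 205, 184, 149 and 311 CPM, so that the tumor was the lowest library for one core protein and the highest for the other. The tumor over monoculture log2 ratio was -1.40 (-1.42 to -1.37) for Uqcrc1 and 0.60 (0.58 to 0.62) for Uqcrc2. The spheroid over tumor ratios were 1.46 and -1.07. With the GC and length trend removed, the tumor ratio was -0.81 for Uqcrc1 and 0.18 for Uqcrc2, and the spheroid over tumor ratios shrank to 0.18 and -0.15. Uqcrh, the hinge protein, had the lowest spheroid ratio of complex III after Uqcrc2, at -0.01 with 122 CPM in the monoculture, 168 in the co-culture, 121 in the spheroid and 195 in the tumor. Cytochrome c1 (Cyc1), a subunit of the same complex whose symbol the rule does not match, had 505 CPM in the monoculture, 655 in the co-culture, 907 in the spheroid and 262 in the tumor.

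Complex IV, cytochrome c oxidase, had the largest spheroid sum relative to the monoculture. Its members summed to 3687 CPM in the monoculture, 5126 in the co-culture, 6800 in the spheroid and 3829 in the tumor, 1.84-fold for spheroid over monoculture and 1.04-fold for tumor over monoculture. The ordinary subunits all lay above the monoculture in the spheroid, beside 53.7% of all genes, with a median of 0.92. Cox4i1, an early assembly subunit, had 718 CPM in the monoculture, 857 in the co-culture, 1143 in the spheroid and 512 in the tumor. Cox6a1 had 428, 576, 983 and 299 CPM, and Cox5a had 206, 262, 333 and 146 CPM. In these 3 genes the order was spheroid, co-culture, monoculture, tumor. Cox6a1 had the largest spheroid over tumor ratio of the members with at least 10 CPM, 1.72 (1.70 to 1.73), and 0.81 with the trend removed. Cox7c differed from them in the tumor, with 67.0 CPM in the monoculture, 131 in the co-culture, 152 in the spheroid and 123 in the tumor.

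Per kilobase of transcript, the median complex IV gene had 291 CPM in the monoculture and 499 in the spheroid, against 135 and 228 CPM for complex I and 148 and 138 CPM for complex II. On this length-scaled level complex II was the only complex whose median was lower in the spheroid than in the monoculture. That median rests on 4 genes, 2 above and 2 below the monoculture in the spheroid. Their summed level was 1.29-fold higher in the spheroid, so this median does not show a lower level of the complex.

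The tissue or oxygen dependent versions of complex IV subunits were at low levels and highest in the tumor. Cox6a2, the heart and skeletal muscle version of COX6A (chr7:128205435-128206387, minus strand), had 1.88 CPM in the monoculture, 0.91 in the co-culture, 10.4 in the spheroid and 32.5 in the tumor. It made up 9.81% of the COX6A reads in the tumor (exact interval 9.56% to 10.1%), 1.05% in the spheroid, 0.438% in the monoculture and 0.158% in the co-culture. The spheroid over monoculture log2 ratio was 2.47 (2.28 to 2.66). The spheroid value came to 32.1% of the tumor value, whereas the 7 skeletal muscle markers together came to 0.156% of theirs. Of these markers 6 of 7 also lay above the monoculture in the spheroid, whereas Mb, myoglobin, was at 32.3% of its tumor level in the monoculture and at 0.370% in the spheroid. The 3 heart and slow muscle markers went otherwise. They summed to 10.1 CPM in the monoculture, 0.454 in the co-culture, 0.433 in the spheroid and 1.42 in the tumor. The part of muscle RNA in the levels of the muscle versions was not tested.

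Cox8b, another muscle version, had 2550 reads in the tumor, 61 in the monoculture, 7 in the spheroid and 2 in the co-culture, or 15.7, 0.43, 0.05 and 0.02 CPM. It made up 4.19% of the COX8 reads in the tumor and 0.00854% in the spheroid. Its spheroid level came to 0.327% of the tumor level, and the single skeletal muscle markers had 0.123% to 0.385%. Cox7a1 had 2.41 CPM in the monoculture, 0.89 in the co-culture, 5.42 in the spheroid and 6.76 in the tumor. Its share of the COX7A reads was 1.21%, 0.303%, 1.68% and 2.51% in that order.

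Cox4i2, the lung and hypoxia-associated version of COX4, had 8 reads in the monoculture, 3 in the co-culture, 3 in the spheroid and 192 in the tumor, where it made up 0.230% of COX4 reads. Cox6b2, known from testis, had 8, 2, 10 and 61 reads. Ndufa4l2, known as a gene induced in hypoxia, had 0.27 CPM in the monoculture, 0.32 in the co-culture, 2.34 in the spheroid and 6.17 in the tumor. Its log2 ratio was 3.09 (2.61 to 3.61) for spheroid over monoculture and 0.24 (-0.45 to 0.93) for co-culture over monoculture. Its exons share 32 bases with Shmt2 on the other strand, which had 247 CPM in the monoculture, 592 in the co-culture, 581 in the spheroid and 92.0 in the tumor. The library kit is not described as keeping strand, so reads from this overlap cannot be told apart. Their part in the levels of Ndufa4l2 was not tested.

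**Figure D5:**
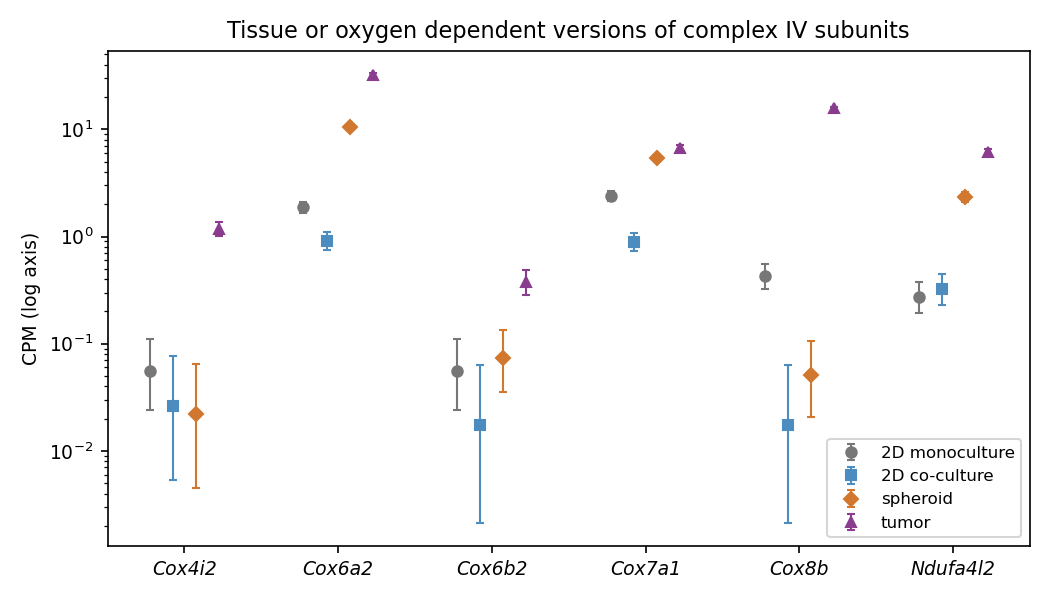
Levels in CPM on a log axis of 6 tissue or oxygen dependent versions in the 4 libraries, with 95% exact intervals that cover counting error. All 6 were highest in the tumor, and Cox6a2, Cox6b2, Cox7a1 and Ndufa4l2 were next highest in the spheroid, Cox6b2 with 10 reads against 8 in the monoculture.

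Complex V, the ATP synthase, held the member with the highest level, and its spheroid sum was only 1.18-fold that of the monoculture. Its members summed to 6636 CPM in the monoculture, 8006 in the co-culture, 7822 in the spheroid and 6110 in the tumor, and their share of the members' level went from 37.8% in the monoculture to 30.3% in the spheroid. Atp5b, the catalytic beta subunit (chr10:128083273-128090391, plus strand), was the highest member in every library, with 2253 CPM in the monoculture, 2652 in the co-culture, 2485 in the spheroid and 1608 in the tumor. Atp5a1, the alpha subunit, had 1352, 1431, 1052 and 1127 CPM. The co-culture was the highest library for both. Their spheroid over monoculture ratios were 0.14 (0.13 to 0.15) and -0.36 (-0.37 to -0.35).

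The smaller F1 subunits behaved otherwise. Atp5e had 150 CPM in the monoculture and 329 CPM in the spheroid, and Atp5c1, the gamma subunit of the rotor, had 334 CPM in the monoculture, 394 in the co-culture, 460 in the spheroid and 490 in the tumor. Atp5d, the delta subunit of the rotor, had 339 CPM in the monoculture, 403 in the co-culture, 517 in the spheroid and 184 in the tumor, a tumor over monoculture ratio of -0.88 (-0.90 to -0.86) and a spheroid over tumor ratio of 1.49 (1.47 to 1.51). With the GC and length trend removed, these Atp5d ratios were -0.74 and 0.59. Rotor partners therefore stood on opposite sides of the monoculture in the tumor. Of the members that are not subunits, Atp5sl had 19.8 CPM in the monoculture, 16.5 in the co-culture, 28.7 in the spheroid and 9.54 in the tumor.

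The c ring of complex V is built from 1 mature protein that 3 genes encode with different import sequences, and the mix of these genes differed between libraries. Atp5g1 had 110 CPM in the monoculture, 115 in the co-culture, 79.9 in the spheroid and 84.6 in the tumor. Atp5g2 had 100 CPM in the monoculture, 159 in the co-culture, 233 in the spheroid and 149 in the tumor. Atp5g3 supplied most of the level, with 668, 912, 789 and 503 CPM. The share of Atp5g2 among the 3 was 11.4% in the monoculture, 13.4% in the co-culture, 21.1% in the spheroid and 20.2% in the tumor, and the share of Atp5g1 was 12.5%, 9.69%, 7.25% and 11.5%. The spheroid over monoculture ratio was 1.22 (1.19 to 1.25) for Atp5g2 and -0.46 (-0.49 to -0.42) for Atp5g1, and 0.58 and -0.45 with the GC and length trend removed. The annotated transcript of Atp5g1 used for its length, 2656 bases, is longer than those of the other two, 731 and 718 bases.

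Promoter sequence was available in RefSeq windows for 69 of the 83 members, in 75 windows of 300 bases on GRCm38.p6. Letters of 4 motifs of factors known for genes of respiration were searched on both strands. The letters were GCGCATGCG for NRF1, CCGGAAGT for GABP, AAGATGGCG for YY1 and TCAAGGTCA for ERRA. The NRF1 letters were in 10.7% of the members' windows against 1.75% of all 32851 windows and 3.56% of windows of genes with at least 1 CPM. The YY1 letters were in 12.0% against 1.40% and 2.95%, the GABP letters in 6.67% against 3.89% and 7.85%, and the ERRA letters in 2.67% against 0.423% and 0.270%. In all 22 members held any of them. A match is a string of letters and not a shown binding site. The stretches below each hold 1 of the motifs and lie before an annotated start and outside annotated exons. Among stretches long enough to print, Ndufa11, Atp5j and Atp5g3 were the only members with their motif. For GABP another member also had such a stretch. The choice therefore does not show a link between motif and ratio. Capitals mark the matched letters, on either strand, and overlapping matches are joined.
Ndufa11, NRF1, plus strand, chr17:56717681-56717761: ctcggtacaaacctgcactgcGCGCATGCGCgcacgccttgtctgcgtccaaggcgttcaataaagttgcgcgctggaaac
Uqcrh, GABP, minus strand, chr4:116075072-116075220: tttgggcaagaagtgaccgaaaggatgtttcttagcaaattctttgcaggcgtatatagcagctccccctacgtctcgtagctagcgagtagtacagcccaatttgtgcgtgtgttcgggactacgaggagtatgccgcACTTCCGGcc
Atp5j, YY1, minus strand, chr16:84835024-84835123: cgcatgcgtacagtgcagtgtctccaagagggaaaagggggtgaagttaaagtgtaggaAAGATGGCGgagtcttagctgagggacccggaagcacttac
Atp5g3, ERRA, minus strand, chr2:73911327-73911476: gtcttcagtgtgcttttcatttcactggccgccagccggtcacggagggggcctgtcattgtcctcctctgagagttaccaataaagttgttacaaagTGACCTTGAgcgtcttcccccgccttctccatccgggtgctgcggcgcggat

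The spheroid over monoculture log2 ratios of these 4 genes were 0.56 for Ndufa11, -0.01 for Uqcrh, 0.87 for Atp5j and 0.24 for Atp5g3. The 8 members with the YY1 letters had a median spheroid ratio of 0.93, against 0.68 for the 59 with a window but without them. The 8 members with the NRF1 letters had a median of 0.55 against 0.76, and the 5 with the GABP letters 0.55 against 0.69. The 2 with the ERRA letters, Atp5g3 and Sdhd, had a median of 0.082 against 0.70. These are descriptions of few genes.

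The genes around the subunits did not all take the same course, and the GC and length trend was not removed from their values. The 46 assembly factors with at least 1 CPM, proteins that help to build the complexes without staying in them, had a spheroid over monoculture median of 0.46 with 7 higher and 1 lower, beside 11.2% and 17.9% of all genes. Their tumor over monoculture median was -0.10 with 0 higher and 2 lower, beside 14.8% and 18.2%. Among them Cox14 had 189 CPM in the monoculture, 205 in the co-culture, 333 in the spheroid and 154 in the tumor. The 17 genes that regulate respiration genes or express mitochondrial DNA had medians of 0.19 in the spheroid, with 0 higher and 4 lower, and -0.25 in the tumor, also with 0 higher and 4 lower, beside the same shares of all genes. Ppargc1a, a coactivator of mitochondrial biogenesis, had 221 CPM in the monoculture, 69.0 in the co-culture, 81.6 in the spheroid and 156 in the tumor. It was thus highest in the library in which most members were lowest. Esrra, the gene of ERRA, had 132, 90.2, 181 and 41.9 CPM, Gabpa, which overlaps Atp5j on the other strand, had 56.1, 33.9, 16.9 and 67.9 CPM, and Tfam, which packs and transcribes mitochondrial DNA, had 63.5, 92.9, 72.4 and 64.4 CPM. The 6 carriers and porins that exchange ATP, phosphate and metabolites had a spheroid median of 0.15. All 6 lay above the monoculture in the co-culture, beside 50.8% of all genes. Cytochrome c (Cycs) had 590 CPM in the monoculture, 747 in the co-culture, 815 in the spheroid and 699 in the tumor. Subunits encoded by mitochondrial DNA were not analysed here.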

How the data were processed

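The authors deposited 1 table of whole-number read counts per gene symbol for the 4 libraries, without normalization. The submitters' processing notes name Trimmomatic, STAR and featureCounts and the build mm10, without versions. Libraries were made from poly(A) RNA with a kit not described as keeping strand, so reads of the 23 members that overlap a coding gene on the other strand, and the 6 that overlap one on the same strand, can be uncertain, as can genes with near-identical copies.

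The counts were turned into CPM with the TMM factors of edgeR 4.0.16 (R 4.3.3). Other steps ran in Python 3.11.15 with scipy 1.17.1, pandas 2.3.3 and numpy 2.4.6. Ratios of lists and 2-fold counts add 1 CPM and use the genes whose mean reaches 1 CPM. Ratios of single genes add nothing. A count of 3 reads, which a count of 0 allows, came to 0.0185 to 0.0262 CPM. Length and GC content were taken from GENCODE M21 (GRCm38), with a value for 97.9% of the 12728 genes, and the correction removes the median ratio in each of 10 by 10 classes. Medians and 2-fold counts were tested on simulated counts with counting noise only. The estimation of TMM factors, the GC and length correction, the intervals and the motif search were not tested in this way.

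The genes named are the catalytic subunits, the tissue or oxygen dependent versions and the c ring genes, the 5 highest and 5 lowest members of 3 comparisons among the 77 with a mean of at least 10 CPM, and listed genes around them. Ndufv2, Ndufb9, Ndufb10, Ndufs3, Ndufs4, Ndufab1, Ndufa10, Atp5f1, Atp5s, Sdhc, Sdhd, Uqcrq, Atp5e, Shmt2 and the genes of the printed promoters were added after their values were seen. The members and lists were chosen with earlier results of these data known. Values of 1 member are not reported here.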

Additional observations from a re-analysis of the deposited data

How the results depend on the processing

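No paired analysis was possible because there is only 1 library for a condition. Each choice was changed alone, with medians counted as moved past a log2 difference of 0.2 and counts past 1.5 times, and 44 of 53 medians and 43 of 53 counts stayed within this. No median changed sign. Of 1269 single-gene values 732 stayed within the counting interval of the main value, and 0 of those more than 2-fold apart changed sign. The GC content and length correction lowered the member median to 0.25 for spheroid over 2D monoculture, with 6 members past 2-fold, 0.089 for co-culture over monoculture, with 1 member, 0.020 for tumor over monoculture, with 3 members, and 0.22 for spheroid over tumor. The scaling of the tumor library mattered most among the rest. The tumor over monoculture median was 0.55 with total counts, 0.56 with upper quartile factors and 0.59 with TMM factors from genes expressed in the monoculture, under which 9 members passed 2-fold. The median of all genes was 0.091 to 0.12 under these scalings and -0.14 with the main one. The spheroid over tumor median was 0.14 with total counts, where 5 members were higher and 7 lower, and 0.24 with the monoculture-expressed factors, and 15 members changed the sign of that ratio under some scaling. In tumor over monoculture, Sdha, Sdhc, Ndufs3, Ndufb10 and Atp5a1 did so, as did Uqcrh, Uqcrc1, Sdhd and Atp5f1 in spheroid over monoculture. Few members pass 2-fold in the other comparisons. In co-culture over monoculture the count was 1 with upper quartile factors and 2 with 0.1 CPM added. In tumor over monoculture it was 2 at a mean of at least 10 CPM and 1 for ordinary subunits only, and in spheroid over co-culture 2 and 0. TMM factors from the 3 cultures alone and the limit to transcripts under 1200 bases were chosen after seeing the data.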
